A study of Homo sapiens with 8 samples.

Results

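A set of 9 genes that encode transcription factors of intestinal identity was followed through the H3K27ac ChIP-seq of a human colonic epithelial cell line. The genes were CDX1, CDX2, HNF4A, HNF4G, GATA4, GATA6, KLF4, KLF5 and ELF3, 9 of the 19689 protein-coding genes of GENCODE release 44 that were examined. Each was given a window, its gene body plus 50 kb on either side in hg38, and all peaks that overlapped a window were taken from the 6 deposited lists. The windows held 339 of the 588343 peaks in those lists, which merged into 77 of 143733 intervals.

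HCEC-1CT is a colonic epithelial line immortalized with CDK4 and hTERT, and the cells used here carried a doxycycline-inducible Cas9. H3K27ac was profiled in 3 parental (WT) libraries and in 3 libraries from cells in which CREBBP, a lysine acetyltransferase, had been knocked out with Cas9 (CREBBP-KO). Per the series' design text the chromatin came from separate growing populations, and the comparison asks what loss of CREBBP does to the acetylation landscape. The methods of the study speak of monoclonal CREBBP-KO cells for the ChIP-seq and elsewhere of pools of several clones with pooled parental subclones, so that clone and genotype cannot be told apart. Peak lists do not measure CREBBP protein and offer no check of the knockout.

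Acetylation of histone H3 at lysine 27 marks active promoters and enhancers. CDX1 and CDX2 are homeobox factors that specify intestinal epithelium, HNF4A and HNF4G are nuclear receptors that act with them on enterocyte genes, and GATA4 and GATA6 are zinc finger factors of endoderm, of which GATA6 is the one typical of colon. KLF4 and KLF5 are Kruppel-like factors of differentiated and of proliferating epithelial cells respectively, and ELF3 is an epithelium-specific ETS factor.

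The sequences just upstream of 4 starts are shown because they separate promoters with a peak in every library (KLF4, KLF5), in the CREBBP-KO libraries only (GATA6) and in no library (CDX2). Each run holds the 250 bases before a RefSeq start (GRCh38.p14, identical to hg38 here), written 5′ to 3′ on the strand of the gene. Capitals mark matches, on either strand, to a KLF motif (CCNCNCCC), a GATA motif (AGATAA) or a CDX motif (TTTATNG). Matches may overlap and are a description of the letters.
KLF4, chr9:107489770-107490019, minus strand: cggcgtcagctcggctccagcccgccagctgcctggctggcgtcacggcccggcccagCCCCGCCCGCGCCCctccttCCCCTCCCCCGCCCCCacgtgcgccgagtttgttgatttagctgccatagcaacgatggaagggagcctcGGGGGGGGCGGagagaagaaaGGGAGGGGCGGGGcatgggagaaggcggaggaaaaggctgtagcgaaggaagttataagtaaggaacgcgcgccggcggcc
KLF5, chr13:73058755-73059004, plus strand: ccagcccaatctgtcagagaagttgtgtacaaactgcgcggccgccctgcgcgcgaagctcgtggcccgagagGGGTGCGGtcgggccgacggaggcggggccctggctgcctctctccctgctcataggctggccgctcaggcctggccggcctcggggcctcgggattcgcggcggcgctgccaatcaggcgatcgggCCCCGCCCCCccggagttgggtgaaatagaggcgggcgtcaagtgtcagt
GATA6, chr18:22169339-22169588, plus strand: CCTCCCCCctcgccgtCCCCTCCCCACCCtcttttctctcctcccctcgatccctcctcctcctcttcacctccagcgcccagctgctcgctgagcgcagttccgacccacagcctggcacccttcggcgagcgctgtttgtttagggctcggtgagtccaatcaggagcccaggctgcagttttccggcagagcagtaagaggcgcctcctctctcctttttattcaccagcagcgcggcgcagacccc
CDX2, chr13:27969316-27969565, minus strand: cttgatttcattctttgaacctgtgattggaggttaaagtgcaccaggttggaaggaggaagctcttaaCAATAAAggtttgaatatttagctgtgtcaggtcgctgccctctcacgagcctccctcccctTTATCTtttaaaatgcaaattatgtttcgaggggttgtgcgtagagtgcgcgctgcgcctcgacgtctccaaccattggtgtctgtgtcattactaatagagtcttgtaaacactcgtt
The KLF4 run held 10 overlapping KLF matches, the KLF5 run 3 and the GATA6 run 3, and the CDX2 run held none but had 1 GATA and 1 CDX match. Among all 35116 RefSeq promoters, 53.4% held a KLF match in the same 250 bases, 9.17% a GATA match and 8.93% a CDX match. The KLF4 run was 69.2% G and C with 25 CpG dinucleotides and the CDX2 run was 45.2% with 10. The GATA6 run also lies over an exon of the antisense gene GATA6-AS1, and a peak there cannot be given to one of these genes alone.

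The cells were first checked against markers by promoter peaks, that is, a peak within 1 kb of a protein-coding start. All 14 mesenchymal markers carried one in all 6 libraries, FN1 and COL3A1 among the highest and PRRX1 and PDGFRA the lowest. Of 12 epithelial markers, 3 did (ESRP2, KRT8 and EPCAM), against 61.7% of all protein-coding genes. EPCAM was low, at percentiles of 0.175, 7.27 and 8.36 in WT and 46.14, 35.55 and 19.68 in CREBBP-KO. These 3 epithelial markers were higher in every CREBBP-KO library, as were 45.0% of all promoters with a peak in all 6 libraries. Of the 14 mesenchymal markers, 9 were higher in every CREBBP-KO library and 1 was lower. KRT18 had a promoter peak in 3 WT and 2 CREBBP-KO libraries. The other 8 had none in any library, among them CDH1, the gene for E-cadherin. None of 4 blood cell markers had a promoter peak, and of 4 endothelial markers PECAM1 alone had one, in the 3 CREBBP-KO libraries. Of 4 basal and squamous markers, KRT6A had one in the 3 CREBBP-KO libraries, KRT5 in 1 CREBBP-KO library, TP63 in 2 WT libraries and KRT14 in none. The label colonic epithelial is therefore used as a name of the line. The WT lists held between 86163 and 93567 peaks and the CREBBP-KO lists between 99008 and 111697, 1.16 times as many on average. The lists hold no reads, so that the depth behind each list is unknown, a missing peak is not an absence of acetylation, and a larger share of marked cells and more mark per cell cannot be told apart.

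Of the 9 genes, 3 carried a promoter peak in all 6 libraries (HNF4G, KLF4 and KLF5), 5 had none in any library (CDX1, CDX2, HNF4A, GATA4 and ELF3), and GATA6 had one in the 3 CREBBP-KO libraries and in none of the WT libraries. Among all protein-coding genes, 61.7% had a promoter peak in all 6 libraries, 32.3% had none and 0.869% had the pattern of GATA6. Over whole windows, 7 of 9 genes had a peak in all 6 libraries against 86.7% of genes, GATA6 had one in 4 libraries, and CDX2 alone was without any peak, as were 9.3% of gene windows. The 3 genes with a promoter peak in all libraries are described first, then GATA6 and then the silent starts.

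HNF4G had the highest promoter of the group by its mean over the 6 libraries, although KLF5 was higher in WT replicate 1. Peak heights are given as the deposited fold over local background and as the percentile of that fold within the library's own list, since lists differed in length. The promoter peak of HNF4G had folds of 14.8, 13.3 and 13.8 in the WT libraries and 19.3, 18.5 and 17.5 in the CREBBP-KO libraries. Its percentiles were 93.5, 91.8 and 91.7 in WT and 97.0, 95.8 and 94.5 in CREBBP-KO, so that the genotypes did not overlap. The mean percentile was 92.3 ± 1.03 in WT and 95.8 ± 1.27 in CREBBP-KO (SD, n = 3), with an exact two-sided permutation p of 0.1, the smallest that 3 libraries against 3 allow, and 0.3 after Benjamini-Hochberg adjustment over the 3 promoters. A percentile higher in every CREBBP-KO library was found at 1 of these 3 promoters and at 45.0% of the 12147 promoters with a peak in all 6 libraries. Ranked by -log10 p in place of fold, the HNF4G difference was 0.63 percentile points in place of 3.44.

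The HNF4G gene (ENSG00000164749.13) spans 159 kb of chromosome 8, from 75407914 to 75566834 on the plus strand, and has 3 distinct protein-coding starts. The peak lay at the upstream start, position 75408036, and none of the 6 libraries had a peak within 1 kb of the canonical start at 75539869 or of the start next to it. Base composition differed between these starts. Within 500 bases on either side, the upstream start had an observed over expected CpG ratio of 0.661, and the canonical start a ratio of 0.0328 at 35.0% G and C, lower than in all but 0.137% of genes.

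The HNF4G window held 93 peaks over the 6 libraries, the highest count of the group in its longest window, with no neighbouring protein-coding gene in it. Of these, 68 lay in the gene body away from its promoters. The highest interval away from a start was 14.8 kb beyond the last of the 3 starts, with percentiles of 84.6, 88.1 and 89.6 in WT and 84.4, 89.2 and 82.8 in CREBBP-KO, which overlapped. A weaker interval 6.9 kb beyond that start lay at 60.1, 56.4 and 58.6 in WT and at 23.3, 16.2 and 32.3 in CREBBP-KO, without overlap. Among the intervals of the rank fit, 23.3% were lower in every CREBBP-KO library. The fit asked for a fold of at least 5 in all 3 libraries of a genotype. This interval was outside it, with WT folds of 5.14, 4.83 and 5.17, and was named after its values were seen. One interval 6.3 kb before the upstream start had a peak in all 3 WT libraries, at percentiles between 20.4 and 53.6, and in no CREBBP-KO library. It was the only one of the 77 intervals with that pattern, which 1.08% of all merged intervals had.

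KLF5 (ENSG00000102554.14, chromosome 13, 73054976 to 73077541, plus strand) had peaks over both of its starts. In 5 of 6 libraries these were separate peaks, and merged over the libraries they formed an interval of 9.84 kb that covered both protein-coding starts, which lie 4029 bases apart, and the first bases of the gene body. The highest summit of this interval was 1640 bases beyond the canonical start, outside the 1 kb promoter window and the bases printed above. The peak that overlapped the window of the canonical start had percentiles of 97.0, 89.4 and 83.2 in WT and 94.4, 93.9 and 93.1 in CREBBP-KO. The WT libraries spread over a wider range than the CREBBP-KO libraries and enclosed them. The means were 89.9 ± 6.94 and 93.8 ± 0.644 (SD, n = 3; exact two-sided permutation p = 0.4, adjusted p = 0.6). The upstream start was lower in 5 of 6 libraries, at 72.6, 68.9 and 73.8 in WT and 70.9 and 77.9 in CREBBP-KO replicates 1 and 2. In CREBBP-KO replicate 3 a single peak spanned both starts, at 93.1.

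Apart from the promoter interval, the highest interval of the KLF5 window was 31.4 kb beyond the canonical start, outside the gene. It lay at percentiles of 55.3, 72.7 and 52.0 in WT and 65.2, 53.2 and 74.4 in CREBBP-KO, which overlapped, and was outside the rank fit. The highest distal site within the KLF5 body ranked lower in the CREBBP-KO libraries. This interval, 15.7 kb beyond the canonical start (chr13:73072835-73075471), lay at percentiles of 69.4, 63.3 and 61.0 in WT and of 51.0, 57.4 and 46.9 in CREBBP-KO, lower in every CREBBP-KO library, as at 23.3% of the intervals fitted. In a limma fit to normal scores of the ranks over 34864 intervals its shift was -0.96 with a standard error of 0.29 and a Benjamini-Hochberg adjusted p of 0.0131. It met the filter of that fit, a fold of at least 5 in all 3 libraries of a genotype, through WT alone, the genotype in which it was higher. With no fold filter the shift was -0.67 (adjusted p = 0.0469). The call was lost without WT replicate 1 (shift -0.75) and with ranks of -log10 p (-0.77). The 200 bases around its highest summit (chr13:73074561-73074760, plus strand) are shown as the one site of the 9 genes themselves that ranked lower.
KLF5 body, 15.7 kb from the start: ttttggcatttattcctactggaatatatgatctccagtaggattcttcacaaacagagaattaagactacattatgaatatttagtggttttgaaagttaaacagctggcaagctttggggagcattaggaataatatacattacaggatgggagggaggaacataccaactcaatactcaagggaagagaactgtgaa
It was 36.5% G and C with 0 CpG dinucleotides and had no match to any of the 7 motifs searched, although the 300 bases used for the motif counts held a TEAD match. A weak interval 4.9 kb beyond the canonical start had a peak in all 3 CREBBP-KO and no WT library, at percentiles of 31.9, 7.98 and 27.1.

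KLF4 (ENSG00000136826.15, chromosome 9, 107484852 to 107490482, minus strand) had the lowest of the 3 shared promoters. Its percentiles were 84.0, 77.4 and 84.2 in WT and 86.2, 82.7 and 81.2 in CREBBP-KO, and the genotypes overlapped. The means were 81.9 ± 3.86 and 83.4 ± 2.61 (SD, n = 3), with an exact two-sided permutation p of 0.7. Set against promoters acetylated in every library, the mean over 6 libraries was above that of 28.0% of genes for KLF4, 61.2% for KLF5 and 72.2% for HNF4G.

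The acetylation around KLF4 lay mostly outside the gene, which is 5.63 kb long. Besides the promoter, 3 intervals had a peak in all 6 libraries, at 14.2 kb upstream of the promoter and at 8.9 and 23.8 kb downstream of the canonical start. The site at 23.8 kb had folds of 4.10, 5.33 and 4.01 in WT and 8.16, 7.43 and 8.81 in CREBBP-KO. Its percentiles were 46.6, 61.5 and 42.6 in WT and 80.8, 76.1 and 79.7 in CREBBP-KO, so that every CREBBP-KO library lay above every WT library, as at 24.8% of the 34864 intervals of the rank fit. The limma shift was 1.32 with a standard error of 0.28 and a Benjamini-Hochberg adjusted p of 0.00117. The interval met the fold filter of the fit, at least 5 in all 3 libraries of a genotype, through CREBBP-KO alone, the genotype in which it was higher. In the fit with no fold filter the shift was 0.93 (adjusted p = 0.0033), and it stayed past the threshold under all 14 alternatives that could be applied to it.

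The 2 other KLF4 sites had smaller differences. The site at 8.9 kb lay at 78.1, 72.1 and 67.8 in WT and 82.4, 81.4 and 89.4 in CREBBP-KO, with a shift of 0.56 (standard error 0.24, limma adjusted p = 0.0682). The upstream site lay at 67.5, 57.8 and 49.4 in WT and 76.8, 73.5 and 73.4 in CREBBP-KO, with a shift of 0.69 (standard error 0.29, limma adjusted p = 0.0617). Neither passed the test, and the lack of overlap at both is to be read against the same 24.8% of intervals. The shift at the KLF4 promoter itself was -0.06 with a standard error of 0.21. The 200 bases around the summit of the site that ranked higher (chr9:107465866-107466065, shown on the minus strand of KLF4) are given with KLF matches in capitals, as the one site outside neighbouring genes that rose.
KLF4, 23.8 kb downstream of the start: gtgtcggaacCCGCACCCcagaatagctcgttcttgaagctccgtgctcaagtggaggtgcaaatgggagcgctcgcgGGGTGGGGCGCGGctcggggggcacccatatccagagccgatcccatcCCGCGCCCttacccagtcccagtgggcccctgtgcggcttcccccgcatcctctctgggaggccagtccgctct
This run was 67.5% G and C with 16 CpG dinucleotides and 4 overlapping KLF matches. A KLF match was found in 29.1% of windows of this length around the summits of 35524 filtered intervals.

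**Figure D1:**
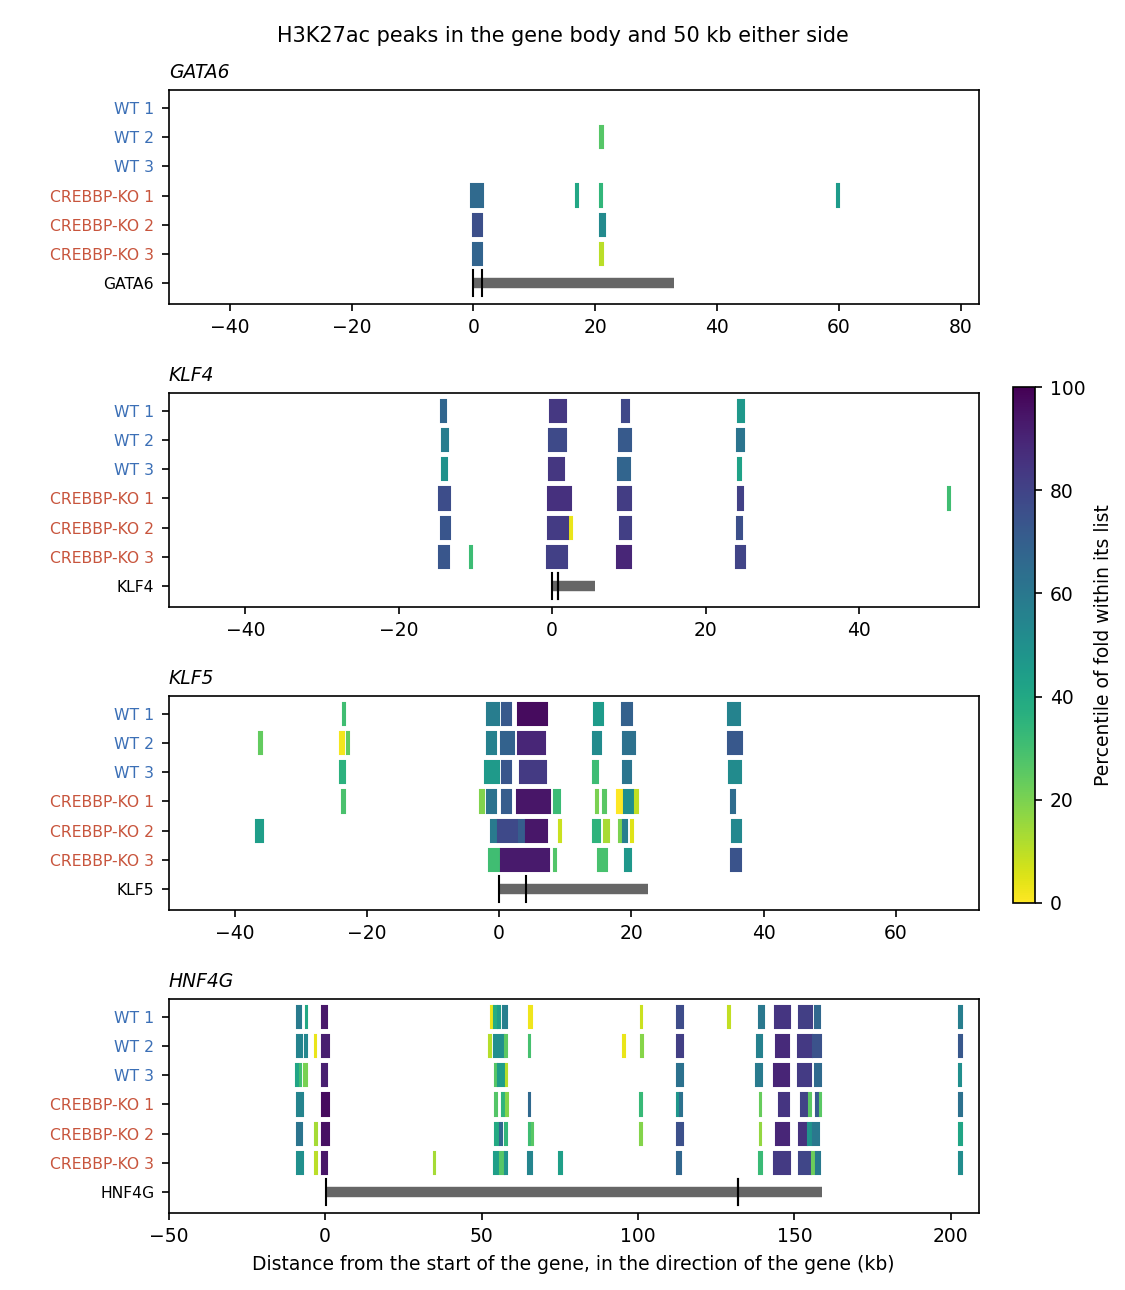
Peaks of 4 windows by library, with distance from the start of the gene in kb on the horizontal axis, the gene as a grey bar, protein-coding starts as black ticks, and colour for the percentile of the peak's fold in its own list. The GATA6 start is marked in the 3 CREBBP-KO libraries alone, the KLF4 peaks lie mainly outside the gene, KLF5 has peaks over both starts, and the HNF4G promoter peak lies at the upstream start.

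GATA6 (ENSG00000141448.11, chromosome 18, 22169589 to 22202528, plus strand) was the one gene of the group whose promoter call differed between genotypes. A peak with folds of 5.24, 7.34 and 6.06 and percentiles of 65.8, 75.8 and 68.3 covered both protein-coding starts in the 3 CREBBP-KO libraries, and no WT library had a peak there. The merged interval (chr18:22169179-22171207) was 2.03 kb wide and had a fold of at least 5 in every CREBBP-KO library. Of 35542 intervals with this fold in all libraries of a genotype, 104 or 0.293% had it in CREBBP-KO with no WT peak, and the GATA6 promoter was 1 of them. The call of 3 CREBBP-KO and 0 WT libraries was the same under all 6 alternatives tried for it, namely peaks of fold at least 5, peaks of -log10 q at least 5, lists cut to the same length, a window of 2 kb, the canonical start alone and a summit inside the window. Only the window of 2 kb could have added a WT peak. The others can only remove peaks, and the outcome at a fold of at least 5 was fixed by the folds above. No test was possible on the height, as the WT libraries gave no value, and a WT signal below the threshold of the lists cannot be seen.

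The rest of the GATA6 window was nearly bare. A weak interval 19.8 kb beyond the second start had a peak in WT replicate 2, at percentile 26.3, and in the 3 CREBBP-KO libraries, at 34.2, 52.6 and 10.3. The 2 other peaks were found in CREBBP-KO replicate 1. The window counted 0, 1 and 0 peaks in the WT libraries and 4, 2 and 2 in the CREBBP-KO libraries.

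The other GATA gene, GATA4 (ENSG00000136574.19, chromosome 8, 11676959 to 11760002, plus strand), had no peak at any of its 7 protein-coding starts or elsewhere in its body in any library. Its window counted 42 peaks, all downstream of the gene. Of these, 24 were at promoters of the neighbours NEIL2, a DNA glycosylase gene, and FDFT1, the gene for squalene synthase, and 5 were in the bodies of these genes. The highest interval away from any start lay between GATA4 and NEIL2, at a mean percentile of 48.6.

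CDX2 (ENSG00000165556.10, chromosome 13, 27960918 to 27969315, minus strand) had no peak in its window of 108.4 kb in any of the 6 libraries. The window also holds the starts of PDX1 and URAD, which were silent too. CDX1 (ENSG00000113722.18, chromosome 5, 150166778 to 150184558, plus strand) had no peak at its single start. One weak interval in its body, 14.2 kb from the start, had folds of 3.07, 3.36 and 2.90 and percentiles of 22.5, 32.8 and 18.8 in the CREBBP-KO libraries and no WT peak. The CDX1 window was nevertheless rich in peaks, 59 over the 6 libraries, of which 13 were at promoters and 33 in bodies of neighbouring genes. Its highest interval, 10.2 kb wide, lay in PDGFRB, a receptor gene of mesenchymal cells, at percentiles of 93.7, 93.3 and 95.4 in WT and 97.1, 98.3 and 95.9 in CREBBP-KO. A further 10 peaks lay outside protein-coding genes. An interval of this kind 6.4 kb upstream of the CDX1 start had a peak in all 6 libraries. Its mean percentile was 69.3 ± 7.35 in WT and 69.95 ± 9.02 in CREBBP-KO (SD, n = 3).

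HNF4A (ENSG00000101076.20, chromosome 20, 44355699 to 44432845, plus strand) had no peak at any of its 9 protein-coding starts, which fall into an upstream and a downstream cluster about 45.5 kb apart. In its body, an interval 6.4 kb beyond the downstream starts was marked in each CREBBP-KO library, at percentiles of 10.0, 41.4 and 31.2, and in none of the WT libraries. The highest interval away from a start was 66.6 kb from the nearest HNF4A start, outside the gene, at a mean percentile of 74.9 ± 7.42 in WT and 81.1 ± 3.82 in CREBBP-KO (SD, n = 3), with a limma shift of 0.19 and an adjusted p of 0.57. The promoters of FITM2 and TTPAL accounted for 12 of the 34 peaks. ELF3 (ENSG00000163435.16, chromosome 1, 202007945 to 202017183, plus strand) had no peak at its 3 starts or in its body. Of the 22 peaks of its window, 6 were at the promoter of RNPEP, 13 in bodies of neighbouring genes and 3 outside genes.

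**Figure D2:**
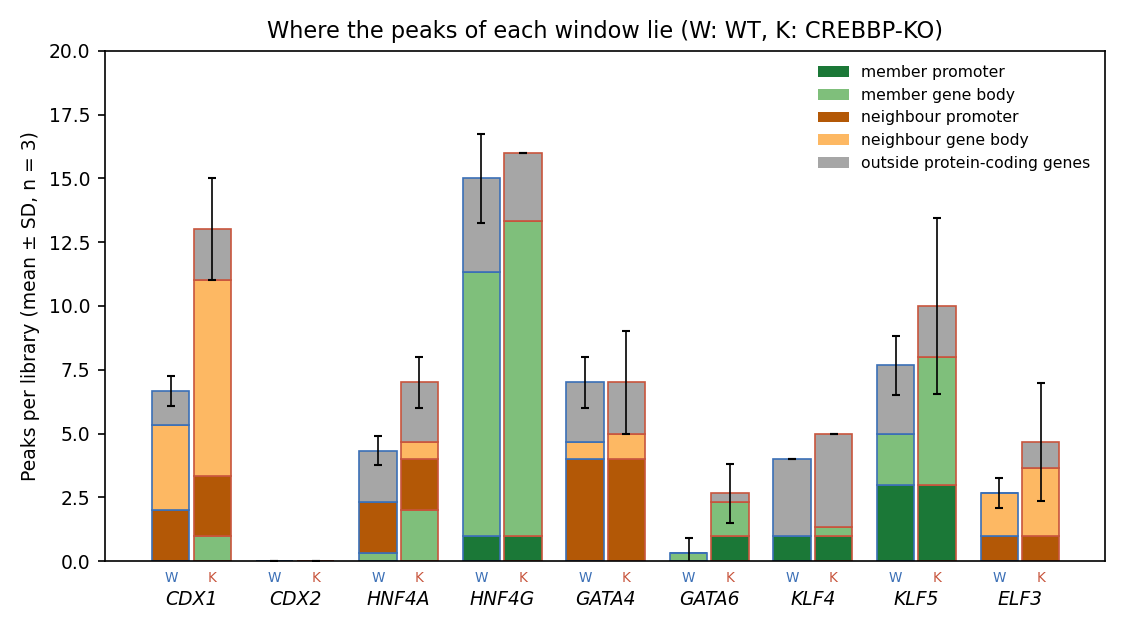
Peaks per library in each window, split by where they lie, with the WT mean (W, blue outline) beside the CREBBP-KO mean (K, red outline) and error bars for the SD of the total over 3 libraries. Green parts belong to the gene itself, and the windows of CDX1, GATA4 and ELF3 consist mostly of brown and orange parts at neighbouring genes.

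Base composition was compared between silent and acetylated starts. Around the canonical start, the ratio of observed to expected CpG was 1.03 for KLF4 and 0.957 for KLF5, higher than in 99.2% and 95.2% of genes. It was 0.805 for GATA6, 0.784 for CDX1, 0.695 for CDX2, 0.659 for GATA4, 0.367 for HNF4A and 0.271 for ELF3, with a median of 0.727 over all genes. Among the canonical starts, KLF4, KLF5 and GATA6, each with a peak in at least some libraries, had higher ratios than all the silent ones. The silent CDX1 start was close to GATA6. The acetylated upstream HNF4G start, which is not canonical, had a ratio of 0.661, below the silent CDX1 and CDX2 starts. Whether the ratio sets silent and acetylated starts apart was not tested.

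Counted over the 9 windows together, the WT libraries held 48, 51 and 44 peaks and the CREBBP-KO libraries 70, 63 and 63, which did not overlap. The means were 47.7 ± 3.51 and 65.3 ± 4.04 (SD, n = 3; exact two-sided permutation p = 0.1). Without peaks at neighbouring genes the counts were 34, 36 and 29 against 48, 44 and 40. The excess was not seen among strong peaks. Among peaks with a fold of at least 5, the mean was 23.3 in WT and 23 in CREBBP-KO (exact permutation p = 1.0, n = 3). More peaks in every CREBBP-KO than in every WT library were counted in 4 of 9 windows (CDX1, HNF4A, GATA6 and KLF4) and in 19.0% of all gene windows, while the CREBBP-KO lists were longer as a whole. Per 100000 peaks of the list, the KLF4 window no longer separated the genotypes, at 4.41 ± 0.20 in WT and 4.76 ± 0.285 in CREBBP-KO (SD, n = 3). Those of CDX1, HNF4A and GATA6 still did, each at an exact permutation p of 0.1 and a Benjamini-Hochberg adjusted p of 0.3. The share of all gene windows apart on this scale was not counted. In the CDX1 window, bodies of neighbouring genes held 3, 3 and 4 peaks in WT and 8, 6 and 9 in CREBBP-KO. The CDX1 body held 0 in each WT and 1 in each CREBBP-KO library. Of the 77 merged intervals, 25 had a peak in 1 library alone, and 5 had one in all 3 CREBBP-KO and no WT library, 2 in the CDX1 window and 1 each in those of GATA6, HNF4A and KLF5, a pattern that 2.66% of all merged intervals had.

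The rank fit took in 22 of the 77 intervals, those with a fold of at least 5 in all libraries of a genotype and a peak in all 6. By limma with Benjamini-Hochberg adjustment over the 34864 intervals, 4 had higher and 3 had lower ranks in the knockout. Of all intervals, 18.6% ranked higher and 18.7% lower, so that the windows as a set were near the background. The study's own test on reads, with a fold-change cut and a stricter threshold, found the large majority of H3K27ac peaks unaffected. Calls on ranks are an unlike measure, and their share is not an estimate of how much of the landscape changed. Of the 7 calls, 5 met the fold filter in 1 genotype alone, each in the one where it was higher, and those at NEIL2 and RNPEP met it in both. A requirement met through the higher group favours a difference. With no fold filter, 3 of 31 intervals ranked higher and 4 lower, beside 6544 and 6318 of all 52187 intervals. Most of the 7 calls were at neighbouring genes. The promoters of NEIL2 (shift 1.14), RNPEP (1.07) and FITM2 (0.90, adjusted p = 0.0395) ranked higher, and intervals in the TIMM17A body (-1.62) and at an FDFT1 start (-1.06) ranked lower. The FITM2 call was lost in 10 of 14 alternatives and the FDFT1 call in 3, while those at NEIL2, RNPEP and TIMM17A were kept in all that could be applied. At the 9 genes themselves and outside genes, 1 of 13 intervals ranked higher, near KLF4, and 1 lower, in KLF5, with a median shift of -0.06. At a fold of at least 10, 1 of 7 intervals ranked higher and 0 lower, beside 3426 and 3295 of all 15294 intervals.

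**Figure D3:**
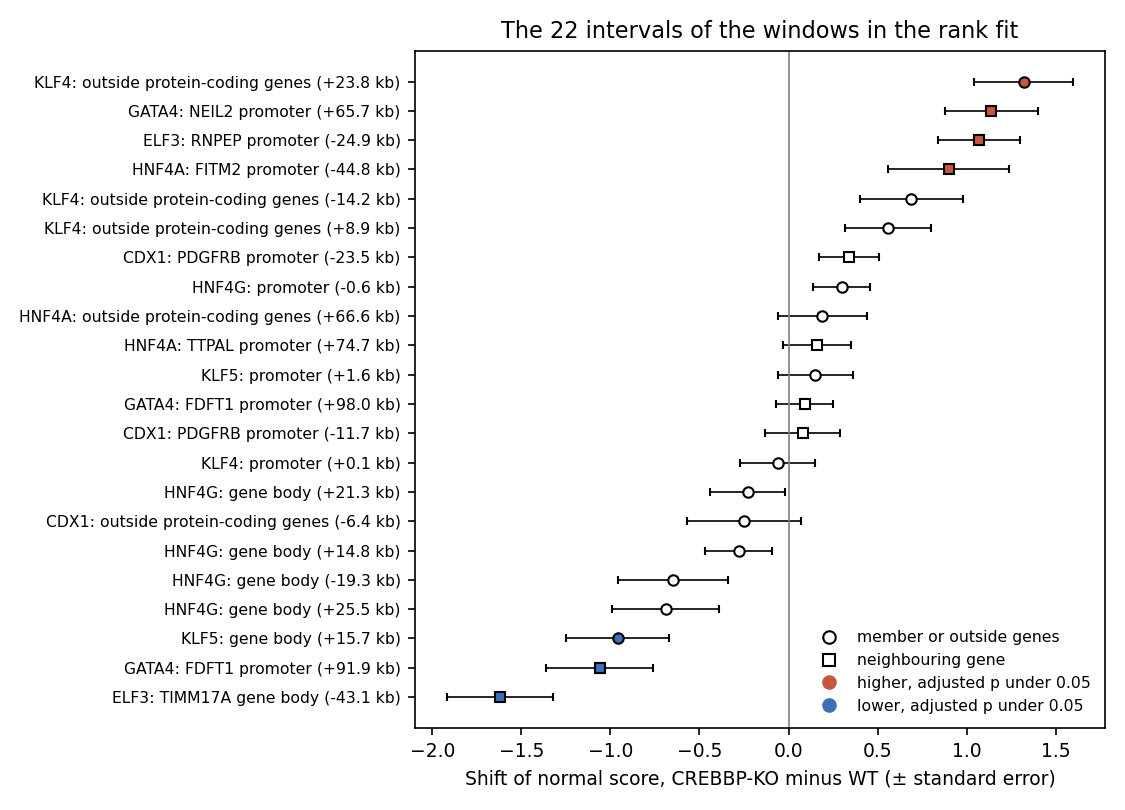
Rank shift of the 22 fitted intervals, CREBBP-KO minus WT, in units of normal scores with standard errors, ordered by size. The kb give the distance of the summit from the nearest start of the named factor, filled symbols passed an adjusted p of 0.05, squares lie at neighbouring genes, and 2 of the 7 filled symbols are circles, the KLF4 site and the KLF5 body site.

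Motif matches were counted in 300 bases around the summits of the 14 filtered intervals that were not at neighbours, 13 of them in the rank fit. A TEAD match (GGAATG) was found in 6 and in 14.6% of all 35524 filtered intervals, a GATA match in 4 and in 14%, a KLF match in 4 and in 37.1%, an AP-1 match (TGANTCA) in 2 and in 8.81%, and a CDX match in 1 and in 12.3%. The HNF4 letters (CAAAGTCCA) and the ETS letters (CCGGAAG) were found in none, against 0.358% and 3.40% of all intervals. The AP-1 matches were at the promoter intervals of KLF4 and KLF5.

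Of 18 other genes of the same families, 13 had a promoter peak in all 6 libraries and 4 had none. Among these, KLF7 and KLF6 had the highest mean percentiles, 99.5 and 99.2, and KLF2 and GATA2 the lowest, 74.8 and 47.7. GATA3 had a peak in 2 CREBBP-KO libraries and no WT library, and GATA1, GATA5, CDX4 and ELF5 were silent. EHF, an epithelial ETS factor like ELF3, had percentiles of 88.9, 81.0 and 90.9 in WT and 93.3, 94.1 and 93.9 in CREBBP-KO. Of these 13 genes, 6 were higher in every CREBBP-KO library, to be read against the 45.0% of all promoters.

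Of 16 other intestinal transcription factors, 6 had a promoter peak in all 6 libraries and 9 had none. TCF7L2, the effector of Wnt signalling, was highest at a mean of 96.2, followed by PRDM1, a repressor of adult enterocyte genes in the immature intestine, at 93.2, and VDR and FOXA1 were lowest at 82.8 and 61.9. PRDM1 was lower in every CREBBP-KO library, as were 7.71% of all promoters with a peak in all 6, and FOXA3 was higher in every one, as were 45.0%. FOXA2, SOX9 and ATOH1 were among the silent genes. Of 18 effector genes of the mature intestine, 14 had no promoter peak, among them CDH17, VIL1, KRT20 and FABP1, known targets of CDX2 and HNF4 factors. MUC2, the main intestinal mucin gene, and ANPEP, a brush border peptidase gene, had one in all 6 libraries. MUC2 lay at 52.4, 55.4 and 51.1 in WT and 82.5, 83.5 and 86.4 in CREBBP-KO. MUC2 and ANPEP were both higher in every CREBBP-KO library, as were 45.0% of all promoters with a peak in all 6. LGALS4, a galectin gene, had a peak in the 3 WT libraries at 52.5, 47.9 and 45.3 and none in CREBBP-KO. That pattern was found in 0.0813% of protein-coding genes.

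The genes whose promoter percentiles over the 6 libraries were most like those of the 3 shared promoters were SVEP1 for HNF4G, at a Euclidean distance of 1.18 percentile points, TAF1A for KLF4, at 4.08, and SAMD9 for KLF5, at 4.00, each among 12146 genes.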

How the data were processed

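H3K27ac ChIP-seq of 3 WT and 3 CREBBP-KO libraries was used; the 2 input libraries, 1 per genotype, were not analysed here. Per the labels and the study's methods, the authors aligned reads with BWA to hg38 in the nf-core ChIP-seq pipeline and called narrow peaks with MACS2 per library. The deposited fold (column 7) is a linear ratio over local background, and the deposited significance is -log10 p and -log10 q; the deposited score, which MACS2 derives from the q-value, was not used. Whether lists precede the downsampling of reads described by the authors is not given in the sources used here. Their test on reads could not be repeated.

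The 9 genes, the gene lists and the tests were chosen with earlier results of these data known. A promoter peak overlapped a protein-coding start by 1 kb on either side. The percentile is the average rank of fold within a list. The libraries of each genotype were compared with exact permutation tests, two-sided. For merged intervals with a fold of at least 5 in all 3 libraries of a genotype, normal scores of ranks were fitted with limma 3.58.1 (lmFit, eBayes with a trend, R 4.3.3) and adjusted by Benjamini-Hochberg. P-values measure the spread between these libraries. Scripts used Python 3.11.15, pandas 2.3.3, scipy 1.17.1, pysam 0.24.0 and bedtools 2.31.1, and were tested on simulated data. Named intervals were, per gene, the highest promoter and the highest distal interval and those past an adjusted p of 0.05. Others, among them weak intervals found in 1 genotype, were added after their values were seen. Names of neighbours and lists came from GENCODE release 44, and RefSeq promoters were matched for the genes printed; CDX1, HNF4G and GATA4 had no entry. Some genes of the lists are counted but not reported here by name.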

Additional observations from a re-analysis of the deposited data

How the results depend on the processing

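The number of genes with a promoter peak in all 6 libraries was 2 or 3 under the 12 alternatives tried, and the median promoter difference, 3.44 percentile points, ranged from 0.63 to 4.07 under 11. The count of windows with a peak in all 6 libraries went from 7 to 3 in the gene body alone. The difference in peaks over the 9 windows was 17.7 in favour of CREBBP-KO. It was 10 with lists cut to the same length and 2.33 among peaks with -log10 q of at least 5. In the gene bodies alone it was 9.33, with 10 kb on either side 9.67 and with 100 kb 30.0. It was 11 without peaks at neighbouring genes (chosen after seeing the data), and turned to -0.333 at a fold of at least 5. At a fold of at least 10, 1 of 7 intervals of the windows ranked higher and 0 lower. Of all intervals, 3426 and 3295 of 15294 did so, in place of 6472 and 6533 of 34864. Ranked by -log10 p, 3 intervals of the windows ranked higher and 1 lower, beside 4329 and 4498 of all 34864. Leaving out 1 library at a time gave 3 to 5 higher and 2 to 4 lower intervals. With the replicate block, 4 ranked higher and 3 lower, as without it, and the samples share only a number: deviations of same-numbered libraries correlated at 0.0108, 0.0144 and 0.0284. The cause of these changes was not tested, and several settings also changed the number of peaks or intervals compared.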
